A study of Mus musculus with 14 samples.

Results

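The 7 genes described here belong to the hypothalamic reproductive axis and were followed across mice that were fed or fasted and that carried or lacked the mitochondrial fusion protein Mfn1 in the neurons that make pro-opiomelanocortin (POMC). The genes were chosen by name: the peptide genes Kiss1, Tac2, Pdyn and Gnrh1, the steroid hormone receptor genes Esr1 and Pgr, and the prolactin receptor gene Prlr. Of these 7, the platform annotation named Tac2, Pdyn, Esr1 and Pgr, so 4 of the 17097 genes tested are described, and Kiss1, Gnrh1 and Prlr are not analysed here. Total RNA of the hypothalamus of mice 12 weeks old, on a mixed C57Bl/6J, FVB/N and 129 background, was hybridised to 14 HT MG-430 PM arrays (Affymetrix). Control mice with free access to food gave 4 arrays and control mice fasted for 16 h gave 3, and the POMC-specific Mfn1 knockout gave 4 fed and 3 fasted arrays. The deletion lies in 1 class of neuron while the RNA is of the whole hypothalamus, and in such RNA fewer cells of a type and less RNA per cell cannot be told apart. The labels used here name neither the Cre driver nor the sex of the mice. Sex-linked genes had the pattern of male mice on all 14 arrays. The labels also leave unsaid if each array comes from a separate mouse, so the p-values reflect the spread among these arrays, which may be technical.

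Reproduction is driven by neurons that release gonadotropin-releasing hormone (GnRH, from Gnrh1) to the pituitary. Many of the neurons that set the pulses of GnRH lie in the arcuate nucleus and make kisspeptin (Kiss1) together with neurokinin B (Tac2), which excites them, and dynorphin (Pdyn), which restrains them. Oestradiol acts on these and neighbouring neurons through oestrogen receptor alpha (Esr1) and induces the progesterone receptor (Pgr), while prolactin acts through its receptor Prlr. The axis is known to be quieter when energy is scarce, and the comparisons ask how the fast and the deletion changed its genes and whether the fasting response differed between the genotypes.

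Values are log2 expression values, in which 1 unit is a doubling. Levels of different probe sets, the groups of short probes that report a gene, are not compared with each other, because probes differ in binding. The level of background signal was read from 23 probe sets without a target, whose means had a 95th percentile of 4.09, and from 41 olfactory receptor genes, whose 95th percentile was 4.35. Array medians lay between 4.98 and 5.05. The targeted gene Mfn1 was at 9.04 ± 0.06 (SD, n = 4) in fed and 9.06 ± 0.01 (n = 3) in fasted controls, and at 9.06 ± 0.04 (n = 4) in fed and 9.06 ± 0.04 (n = 3) in fasted knockout samples. Its probe set therefore does not check the genotype labels in whole tissue, and the sources used here do not give its place relative to the deleted part. Of 15 hypothalamic markers 13 were measured, with Pmch, Hcrt, Oxt and Avp high on all arrays and the transcription factor genes Otp and Rax at background. Nkx2-1, a further gene of this list, had a mean of 4.17, between the 2 background levels. The numbers in the sample titles form a low series, which holds the 6 fasted arrays and 1 fed array (knockout fed replicate 1), and a high series with the remaining 7 fed arrays. Fasting is therefore almost the same split as the number series. Control fed replicate 1 and knockout fed replicate 4 stood apart in their scores of cortical and hippocampal markers (the mean of the markers' centred log2 values). These were 0.9 and 0.42, against at most 0.05 on every other array. The score of hypothalamic markers was -0.52 in control fed replicate 1, against -0.13 to 0.17 on every other array.

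The progesterone receptor gene Pgr was the 1 measured member that passed the test, and it passed in the fasting comparison averaged over the genotypes: its level was lower in fasted than in fed hypothalamus. Pgr encodes the nuclear receptor for progesterone and is a classic oestradiol-induced gene in the arcuate, ventromedial and preoptic hypothalamus. On its brightest probe set, 1439527_PM_at, control fed samples had log2 levels of 9.04, 8.95, 9.15 and 9.14, and control fasted samples had levels of 8.54, 8.94 and 8.81. Knockout fed samples were at 9.23, 9.23, 9.04 and 9.02, and knockout fasted samples at 8.84, 8.58 and 8.97. Within each genotype all fasted samples lay below all fed ones, in control mice narrowly, with the highest fasted sample at 8.94 and the lowest fed sample at 8.95, and in knockout mice with these at 8.97 and 9.02. Such a separation, in either direction, was seen for 16.5% of all genes in control and 13.0% in knockout mice. Over both genotypes the 8 fed samples ran from 8.95 to 9.23 with a median of 9.09, and the 6 fasted samples from 8.54 to 8.97 with a median of 8.82, so 1 fasted sample, knockout fasted replicate 3, lay above the lowest fed sample.

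The group means of Pgr were 9.07 ± 0.094 (SD, n = 4) in fed and 8.76 ± 0.204 (n = 3) in fasted controls, and 9.13 ± 0.116 (n = 4) in fed and 8.80 ± 0.199 (n = 3) in fasted knockout samples. In this order of levels, both fed groups lay within 1 SD of each other, as did both fasted groups. Averaged over the genotypes, Pgr fell by 0.32 ± 0.076 on the log2 scale (SE, 95% interval -0.484 to -0.156), a change of -19.9%, with limma's adjusted p = 0.0193. This is 1 of 4 members past the threshold of 0.05, in a comparison in which 10.0% of all genes passed and 4.90% passed as lower. Pgr was thus 1 of 837 genes that were lower after the fast.

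Taken by genotype, the fasting difference of Pgr was -0.31 ± 0.108 in control mice and -0.33 ± 0.108 in knockout mice, and neither passed alone (limma's adjusted p = 0.154 and 0.153). Without control fasted replicate 1 the difference of control mice was -0.195. Of the 4 members 0 passed in control mice, where 2.76% of genes did, and 0 in knockout mice, where 0.696% did. At an unadjusted p under 0.05 the count was 1 of 4 in each genotype, beside 17.5% of all genes in control and 16.5% in knockout mice, and this was Pgr both times. The interaction, in which the fasting difference of control mice is subtracted from that of knockout mice, was -0.03 ± 0.152 with a 95% interval from -0.355 to 0.302 (limma's adjusted p = 1.0). The interval reaches about as far on either side of zero as the fasting difference itself, so it leaves room for a response of Pgr that differs between the genotypes.

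The call of Pgr held in 19 of 21 alternative settings, a count that here and below leaves out those added after seeing the data, and its difference lay between -0.44 and -0.26 in all of them. It was lost without knockout fasted replicate 2, the second lowest sample, at -0.27 with limma's adjusted p = 0.0509. It was also lost when the number series was added to the fit (the series covariate), at -0.44 with adjusted p = 0.353, a fit in which the difference rests on the 1 fed array of the low series. That array, knockout fed replicate 1, had a Pgr level of 9.23, above the whole fasted range of 8.54 to 8.97 and 0.45 above the fasted mean. The cortical and hippocampal markers were also lower after the fast, 10 of 10 in sign, and 1 of them, Prox1, passed. The call of Prox1 held in 8 of 21 alternative settings. On knockout fed replicate 4, whose cortical score was 0.42, Prox1 had its lowest fed level, 7.42. Without control fed replicate 1 and knockout fed replicate 4, an alternative added after seeing the data, the Pgr difference was -0.34 and passed (limma's adjusted p = 0.0324). A list of preoptic and telencephalic border markers was also scored, and Pgr is known to be expressed in the preoptic area. Of the list's 8 measured genes 5 were lower after the fast in sign, with 0 past the threshold and 0 at background. Their score ran from -0.09 to 0.28 on fed arrays (median 0.04) and from -0.28 to 0.39 on fasted arrays (median -0.18). On 4 of the 6 fasted arrays it lay below every fed array, and the highest fasted score belonged to knockout fasted replicate 3, the fasted array with the highest Pgr level. The part of the preoptic markers in the Pgr difference was not tested.

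**Figure D1:**
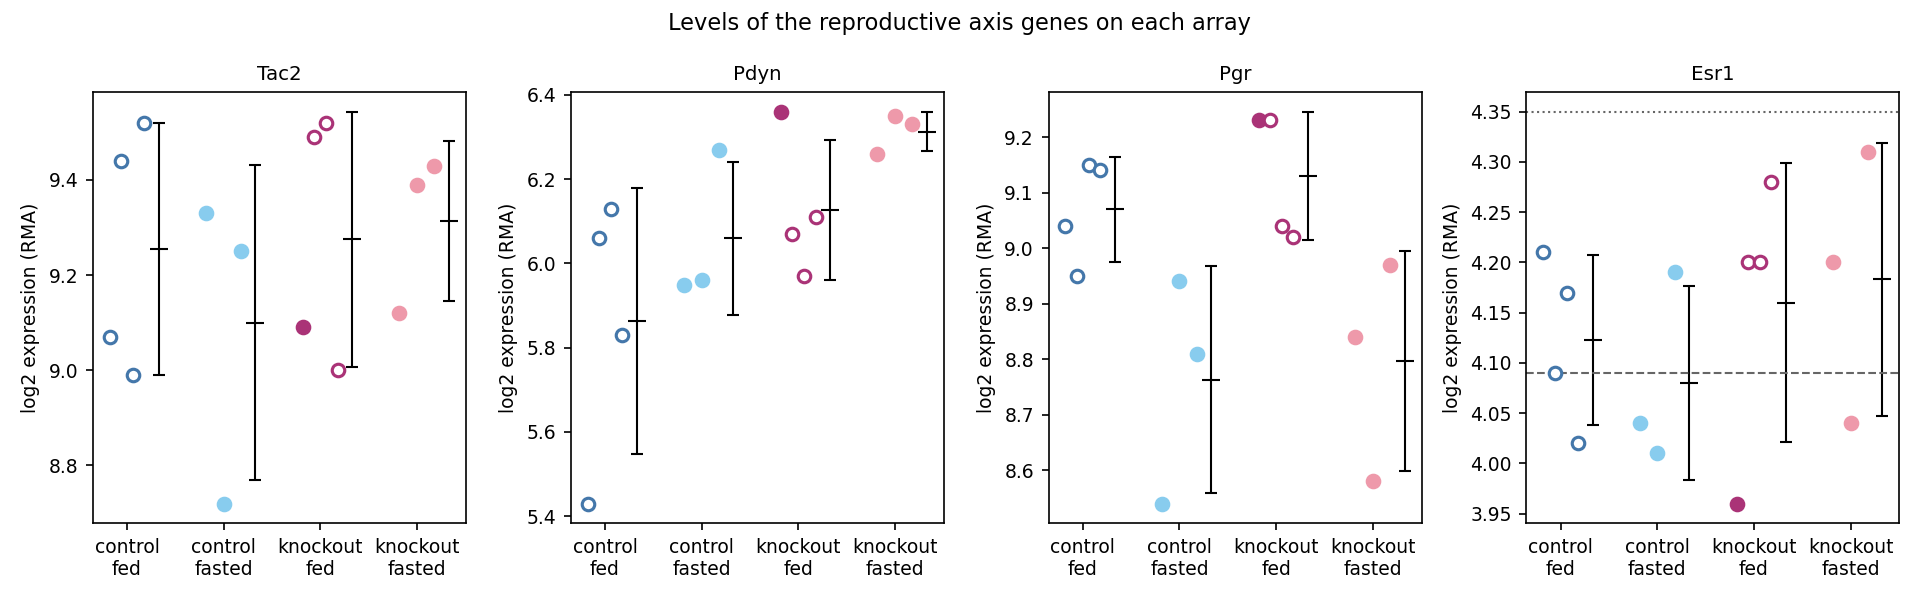
Log2 expression (vertical axis, a separate scale in each panel) of Tac2, Pdyn, Pgr and Esr1 on each of the 14 arrays, by group. Points are arrays, filled for the low and open for the high series of sample numbers, bars are the mean ± SD, and in the Esr1 panel the dashed and dotted lines are the background levels of 4.09 and 4.35. The fasted Pgr points lie at 8.54 to 8.97 and the fed ones at 8.95 to 9.23, while the fed and fasted ranges of Tac2 and Esr1 overlap for most of their length.

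Pgr had further probe sets, and both had a negative fasting difference. Probe set 1455772_PM_at had levels of 6.56, 6.64, 6.97 and 6.75 in control fed, 6.48, 6.69 and 6.40 in control fasted, 6.66, 6.70, 6.69 and 6.93 in knockout fed and 6.55, 6.16 and 6.78 in knockout fasted samples. Of its 6 fasted samples 4 lay below every fed sample, and the other two lay inside the fed range. Its averaged fasting difference was -0.23 ± 0.096 and did not pass among the 28898 probe sets that name 1 gene (limma's adjusted p = 0.161).

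Probe set 1421444_PM_at had a mean of 4.37, which is 0.278 above the first background level and 0.01 above the second, so it is close to background. It was nonetheless the probe set with the cleanest separation: the fed samples were at 4.46, 4.43, 4.48 and 4.50 (control) and 4.66, 4.40, 4.41 and 4.42 (knockout), and the fasted samples at 4.14, 4.32 and 4.06 (control) and 4.19, 4.25 and 4.39 (knockout). All 6 fasted samples lay below all 8 fed samples, a separation seen in either direction for 2.96% of the 28898 probe sets. Its averaged difference was -0.24 ± 0.057 (limma's adjusted p = 0.0184), and that of the brightest probe set in the same fit was -0.32 ± 0.076 (adjusted p = 0.0212). RMA compresses differences of dim probe sets.

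**Figure D2:**
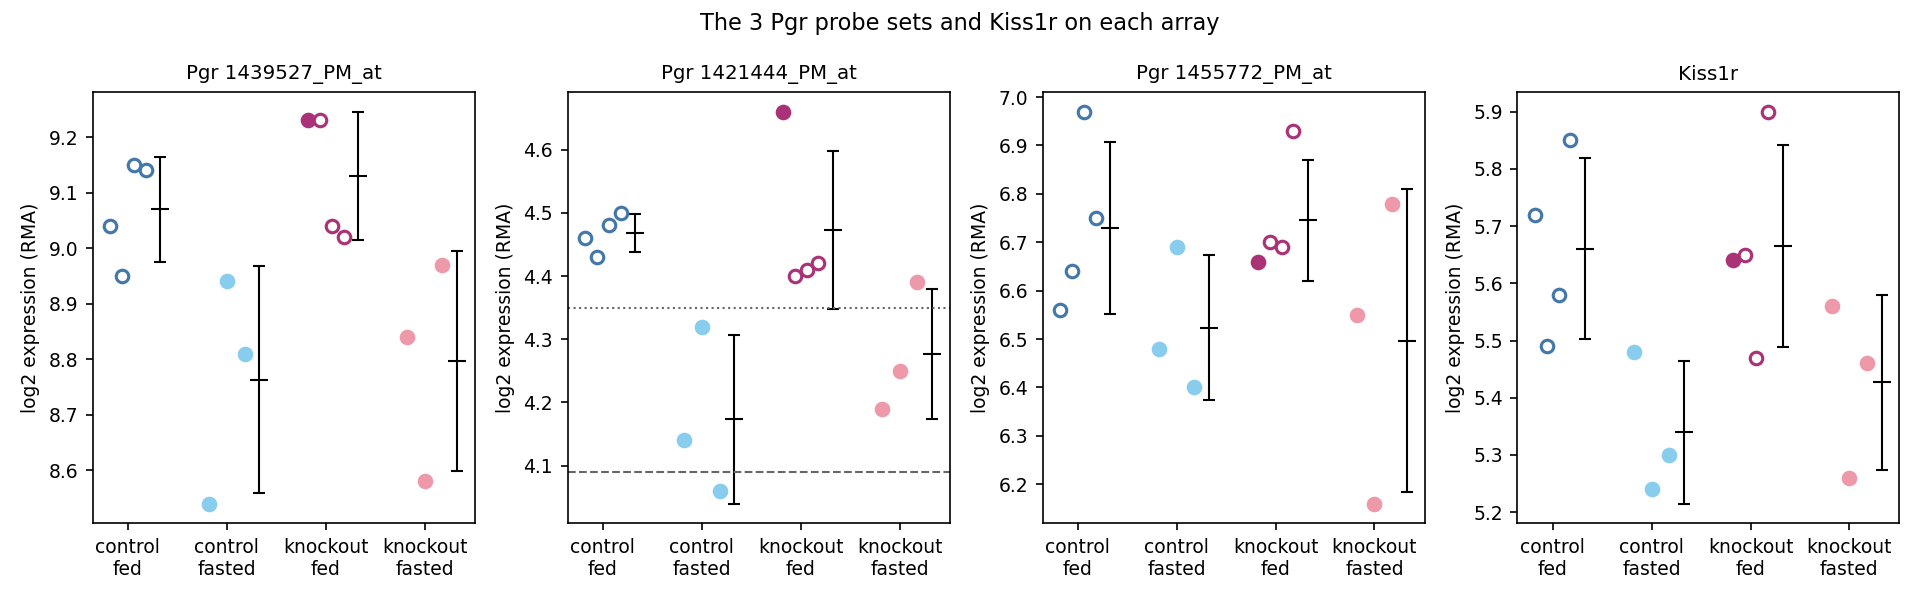
Log2 expression of the 3 Pgr probe sets and of Kiss1r on each array, by group, with points and bars as for the member levels and the background levels of 4.09 and 4.35 drawn in the panel of 1421444_PM_at. On 1421444_PM_at the fed samples are at 4.40 to 4.66 and the fasted ones at 4.06 to 4.39, and on the other probe sets and on Kiss1r the ranges overlap.

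Esr1, the oestrogen receptor through which oestradiol induces Pgr, was near background on its probe set 1421244_PM_at, so its levels carry little information. Control fed samples were at 4.21, 4.09, 4.17 and 4.02 and control fasted samples at 4.04, 4.01 and 4.19. Knockout fed samples were at 3.96, 4.20, 4.20 and 4.28 and knockout fasted samples at 4.20, 4.04 and 4.31. The groups overlapped, and the mean over all arrays, 4.14, was 0.05 above the first background level and 0.218 below the second. The averaged fasting difference of Esr1 was -0.01 ± 0.061 (95% interval -0.141 to 0.122, limma's adjusted p = 0.944) and the averaged genotype difference was 0.07 ± 0.061 (-0.061 to 0.202, adjusted p = 0.999). At this signal a change of the receptor's RNA was not detectable, which does not show that it was absent.

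Tac2 encodes neurokinin B, the stimulating peptide of the kisspeptin neurons, and no difference between groups was detected for it. Its levels were 9.07, 9.44, 8.99 and 9.52 in control fed samples and 9.33, 8.72 and 9.25 in control fasted samples. They were 9.09, 9.49, 9.52 and 9.0 in knockout fed samples and 9.12, 9.39 and 9.43 in knockout fasted samples. The groups overlapped within the whole range from 8.72 to 9.52, with the lowest value in control fasted replicate 2. The means were 9.26 ± 0.264 (SD, n = 4) in fed and 9.10 ± 0.332 (n = 3) in fasted controls, and 9.28 ± 0.268 (n = 4) in fed and 9.31 ± 0.169 (n = 3) in fasted knockout samples, and no neighbours in this order differed beyond their spread. The score of thalamic and habenular markers was lowest in knockout fed replicate 1 (-0.31), control fed replicate 3 (-0.18) and control fasted replicate 2 (-0.14). Tac2 was at 9.09, 8.99 and 8.72 there. That score was highest in knockout fed replicates 2 and 3 (0.2 and 0.19), with Tac2 at 9.49 and 9.52. The part of these markers in the Tac2 levels was not tested.

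The fasting difference of Tac2 was -0.16 ± 0.18 in control mice and 0.04 ± 0.18 in knockout mice, and -0.06 ± 0.127 on average (95% interval -0.333 to 0.216, limma's adjusted p = 0.819). Without control fasted replicate 2 the difference of control mice was 0.035 and the averaged one 0.037, so the sign of both values rested on 1 sample. Knockout minus control was 0.12 ± 0.127 on average (-0.158 to 0.391, adjusted p = 0.999). The interaction was 0.19 ± 0.254 (-0.355 to 0.742, adjusted p = 1.0). Without control fasted replicate 2 the genotype difference was 0.022 and the interaction 0.003. These intervals leave room for changes of Tac2 as large as that measured for Pgr.

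Pdyn encodes prodynorphin, the precursor of dynorphin, which restrains the kisspeptin neurons and is also made by vasopressin neurons. It was the member with the largest genotype difference, and that difference did not pass the test. Control fed samples were at 5.43, 6.06, 6.13 and 5.83 and control fasted samples at 5.95, 5.96 and 6.27. Knockout fed samples were at 6.36, 6.07, 5.97 and 6.11 and knockout fasted samples at 6.26, 6.35 and 6.33. The knockout samples sat in the upper part of the range, from 5.97 to 6.36, but the control samples, from 5.43 to 6.27, overlapped them. The order of the group means was fed controls (5.86 ± 0.316, SD, n = 4), fasted controls (6.06 ± 0.182, n = 3), fed knockouts (6.13 ± 0.166, n = 4) and fasted knockouts (6.31 ± 0.047, n = 3), and neighbours in it differed by less than the larger SD of the pair, or, between the knockout groups, by little more.

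Averaged over feeding states, Pdyn was 0.26 ± 0.103 higher in knockout than in control samples (95% interval 0.036 to 0.482, unadjusted p = 0.026 in limma), which gave an adjusted p of 0.999. Of the 4 members 0 passed in this comparison, in which 0.00585% of genes, 1 gene, did, and at an unadjusted p under 0.05 the count was 1 of 4 members beside 4.65% of all genes. The difference was 0.27 ± 0.135 in fed and 0.25 ± 0.156 in fasted mice (limma's adjusted p = 0.995 and 1.0). In these comparisons 0 of 4 members passed, where 0.00585% of genes passed in fed and 0% in fasted mice. At an unadjusted p under 0.05 the counts were also 0 of 4, beside 4.62% of genes in fed and 3.87% in fasted mice. Control fed replicate 1, the sample with the high cortical and the low hypothalamic score, had the lowest Pdyn level of 5.43. Without that sample the genotype difference was 0.19 on average and 0.121 in fed mice.

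Choroid plexus markers moved with the genotype: 14 of 14 measured markers were higher in sign in knockout samples, 11 of them at an unadjusted p under 0.05 and 0 past the threshold. The score of these markers ran from -1.2 to 0.65 in control samples (median -0.93) and from -1.14 to 1.35 in knockout samples (median 0.72), and none of the markers was at background. With this score as a covariate the genotype difference of Pdyn was 0.51 and still did not pass (limma's adjusted p = 0.102). The fasting difference of Pdyn was 0.19 ± 0.103 on average (95% interval -0.031 to 0.415, adjusted p = 0.264), 0.20 ± 0.146 in control and 0.19 ± 0.146 in knockout mice. Without control fed replicate 1 it was 0.12 on average and 0.053 in control mice, and without control fasted replicate 3 it was 0.092 in control mice. Given the choroid plexus score in the fit the averaged difference was 0.23 and passed (adjusted p = 0.0405), and with the series covariate it was -0.08. The interaction of Pdyn was -0.01 ± 0.207 (-0.458 to 0.434, adjusted p = 1.0).

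For Pgr the averaged genotype difference was 0.05 ± 0.076 (95% interval -0.117 to 0.211, limma's adjusted p = 0.999), with 0.06 ± 0.1 in fed and 0.03 ± 0.115 in fasted mice. The interval excludes a genotype difference of the size seen after the fast. In the interaction 0 of 4 members passed, as did 0% of all genes, and at an unadjusted p under 0.05 the counts were 0 of 4 members and 654 genes, or 3.83%.

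Across the 14 arrays no correlation between members passed the test. Over the 6 pairs, Pearson's r lay between -0.165 (Pdyn and Pgr) and 0.135 (Esr1 and Pgr) (permutation test, adjusted p between 0.977 and 0.985 over the 6 pairs). Spearman's rho lay between -0.11 and 0.074 (adjusted p = 0.96 for every pair). In the 8 fed samples r ranged from -0.391 to 0.376 and in the 6 fasted samples from -0.444 to 0.638, again with no pair past the threshold by permutation. Tac2 and Pdyn, which the kisspeptin neurons make together, had r = 0.076. That r is of RNA of the whole hypothalamus and does not measure their joint expression in those neurons.

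The genes whose levels ran most like Pgr over the 14 arrays, among the 13536 genes above background, were Ankrd17 (r = 0.95), Frmd4b (0.94) and Usp46 (0.93). Their r on values minus group means, from the same arrays, was 0.88, 0.84 and 0.89. For Tac2 they were Calb2 (0.83), which encodes the calcium-binding protein calretinin, Gabbr1 (0.83) and Sec16a (0.81). Calb2 is also on the list of thalamic and habenular markers. For Pdyn they were Magee1 (0.87), Slc25a12 (0.86) and Gnas (0.86), and for Esr1, near background, Yif1a (0.84), Dsg2 (0.83) and Cd99 (0.83). These are descriptions over arrays that share 4 groups. Each gene was picked for its r on these same arrays from 13536 genes, so neither r is independent evidence of a shared regulation. The r that such a search reaches for unrelated genes was not computed, and even Esr1, near background, reached 0.84.

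The wider pathway was taken from 5 lists of genes around the members, with 63 genes besides the 7 of which 53 were measured and 3 were at background (Esr2, Hsd3b2 and Socs1). After the fast 1 of the 53 was higher and 1 was lower on average over the genotypes, beside 5.14% and 4.90% of all genes, and 7 had an unadjusted p under 0.05 beside 26.0% of all genes. The median difference was -0.02, against 0.003 over all genes. Between the genotypes 0 of the 53 passed, beside 0.00585% of all genes, and 2 had an unadjusted p under 0.05, beside 4.65% of all genes. The median genotype difference was 0.04, against -0.001 over all genes.

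The pathway gene that was lower after the fast was Kiss1r, the receptor by which kisspeptin excites GnRH neurons. Its levels were 5.72, 5.49, 5.58 and 5.85 in control fed, 5.48, 5.24 and 5.30 in control fasted, 5.64, 5.65, 5.47 and 5.90 in knockout fed and 5.56, 5.26 and 5.46 in knockout fasted samples. In control mice the groups met at 5.48 and 5.49 without overlapping, as they did in either direction for 16.5% of all genes. In knockout mice they overlapped. Averaged over the genotypes Kiss1r fell by 0.28 ± 0.079 on the log2 scale (limma's adjusted p = 0.0395), with -0.32 ± 0.111 in control and -0.24 ± 0.111 in knockout mice, neither past the threshold (adjusted p = 0.152 and 0.307). The call held in 9 of 21 alternative settings, with an adjusted p as high as 0.665 with the series covariate. It was lost without 9 of the 14 single samples: control fasted replicates 2 and 3, control fed replicates 1, 3 and 4, knockout fasted replicate 2 and knockout fed replicates 1, 2 and 4. The adjusted p without a single sample reached 0.109, and without both samples of high cortical score it was 0.0909, where the difference was -0.23.

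**Figure D3:**
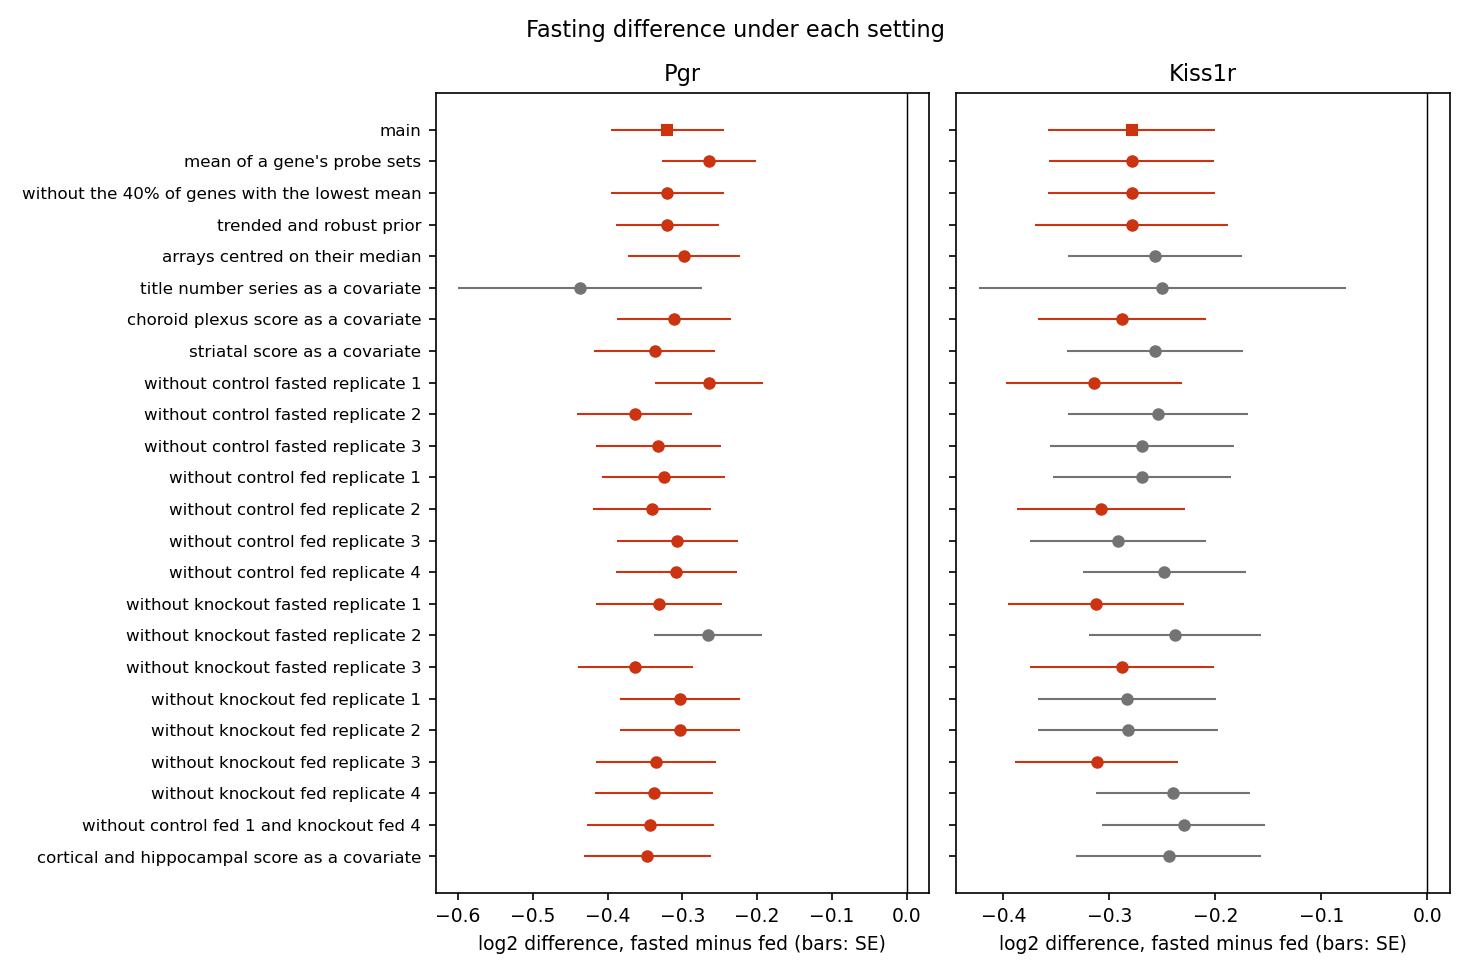
Averaged fasting difference of Pgr and Kiss1r (horizontal axis, log2 units, fasted minus fed, bars ± SE) under each setting, from the reported fit at the top to the alternatives below, with red for an adjusted p under 0.05 and grey otherwise. All points lie below zero, Pgr is red except without knockout fasted replicate 2 and with the series covariate, and Kiss1r is grey in 14 settings, which include the 2 at the bottom that were added after seeing the data.

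Among the other genes of kisspeptin, tachykinin and opioid signalling, 12 of 13 listed genes, members included, were measured and Kiss1r was the 1 that passed after the fast (0 higher, 1 lower). The tachykinin receptor genes Tacr3, through which neurokinin B acts, and Tacr1 differed by -0.02 ± 0.069 and 0.11 ± 0.08, and the dynorphin receptor gene Oprk1 by -0.08 ± 0.131. The opioid receptor gene Oprd1 differed by -0.06 ± 0.048. Oprd1 and Tacr1 had means of 4.14 and 4.20, between the background levels of 4.09 and 4.35. Both are near background, so their differences carry little information. Between the genotypes 0 of 12 passed, and the smallest p after that of Pdyn belonged to Oprl1 (0.07 ± 0.053) and Tacr1 (0.09 ± 0.08).

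Of the genes that act on GnRH neurons 15 of 19 were measured, with 0 higher and 1 lower, Kiss1r, after the fast. Avp, vasopressin, differed by 0.37 ± 0.244 and had its lowest level, 9.06, in control fed replicate 1. Galr1, a galanin receptor gene, differed by -0.12 ± 0.087. Npvf encodes RFamide-related peptides, which restrain GnRH neurons, and had the smallest genotype p of the pathway. Its levels were 4.62, 5.0, 5.31 and 5.23 in control fed and 4.75, 4.78 and 4.89 in control fasted samples, and 5.09, 5.42, 5.34 and 5.71 in knockout fed and 5.38, 5.40 and 5.09 in knockout fasted samples. In fasted mice the knockout samples all lay above the control samples, a separation seen in either direction for 7.64% of all genes, and in fed mice the groups overlapped. The averaged genotype difference of Npvf was 0.42 ± 0.114 (unadjusted p = 0.00278, limma's adjusted p = 0.86), and its fasting difference was -0.17 ± 0.114 (adjusted p = 0.389). Gnrhr, the GnRH receptor gene, differed by -0.09 ± 0.041 between the genotypes, at levels of 3.98 to 4.23 near background. Otx2 differed by 0.46 ± 0.231 between the genotypes and by -0.20 with the choroid score as a covariate, a score of which it is part.

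Of the genes for sex steroid receptors, synthesis and cofactors 14 of 20 were measured, with 0 higher and 1 lower, Pgr, after the fast. Hsd17b10, a mitochondrial dehydrogenase of steroids and fatty acids, differed by 0.16 ± 0.053 (limma's adjusted p = 0.0756). Ncoa2, a coactivator of steroid receptors, differed by -0.10 ± 0.04 (adjusted p = 0.132), and Pelp1, a further coregulator, by 0.12 ± 0.067, a sign that turned when its probe sets were averaged and with the series covariate. Pgrmc1, a membrane-associated protein that shares its name with the progesterone receptor but is no relative of it, differed by 0.001 ± 0.039. Between the genotypes 0 of 14 passed. The membrane oestrogen receptor gene Gper1 differed by 0.10 ± 0.052 and Hsd17b12 by 0.05 ± 0.031. Gper1 was near background, with a mean of 4.31 between the background levels of 4.09 and 4.35.

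Of 12 listed oestradiol-regulated genes 10 were measured and 1 of them, Pgr, passed after the fast, beside 10.0% of all genes in either direction. Cckar, a cholecystokinin receptor gene, differed by -0.30 ± 0.102 (limma's adjusted p = 0.0771), with fed samples from 4.92 to 5.71 (median 5.14) and fasted samples from 4.76 to 5.18 (median 4.89). Greb1, a gene known to be induced by oestradiol, differed by 0.28 ± 0.115 in the other direction (adjusted p = 0.147), with fed samples from 4.93 to 5.60 (median 5.39) and fasted samples from 5.35 to 5.88 (median 5.64). Between the genotypes Oxtr, the oxytocin receptor gene, differed by -0.25 ± 0.148 and Cckar by 0.17 ± 0.102, with 0 of 10 genes past the threshold. After the fast 5 of the 10 measured genes of this list were higher and 5 lower in sign, with Pgr counted. The part of oestradiol in the Pgr difference was not tested.

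Of the genes of prolactin signalling and of the dopamine neurons that hold prolactin in check, 14 of 16 were measured and 1 rose after the fast. This was Ddc, the decarboxylase that makes dopamine and serotonin. Its levels were 9.04, 9.58, 9.64 and 9.41 in control fed, 9.76, 10.11 and 10.13 in control fasted, 9.31, 9.40, 9.37 and 9.49 in knockout fed and 9.92, 9.93 and 9.61 in knockout fasted samples. The groups did not overlap within either genotype, a separation seen in either direction for 16.5% of all genes in control and 13.0% in knockout mice. Ddc was 0.51 ± 0.096 higher on average (limma's adjusted p = 0.00626, past the threshold in 20 of 21 alternatives and lost with the number series at 0.323). In control mice alone it was 0.58 ± 0.136 higher (adjusted p = 0.0383, past the threshold in 12 of 22 alternatives), and in knockout mice 0.43 ± 0.136 (adjusted p = 0.148). Th, the enzyme before Ddc in the same pathway, differed by 0.29 ± 0.159 and did not pass (adjusted p = 0.267). The cytokine signalling inhibitors Socs2 and Socs1, the latter at background, differed by -0.13 ± 0.06 and -0.14 ± 0.066. Between the genotypes 0 of 14 passed, with Ghr, the growth hormone receptor gene, at 0.21 ± 0.064 (unadjusted p = 0.00585, adjusted p = 0.935), Jak2, the kinase of the prolactin receptor, at 0.08 ± 0.046 and Socs3 at -0.14 ± 0.077. Socs3 was near background, with a mean of 4.30 between the background levels of 4.09 and 4.35.

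**Figure D4:**
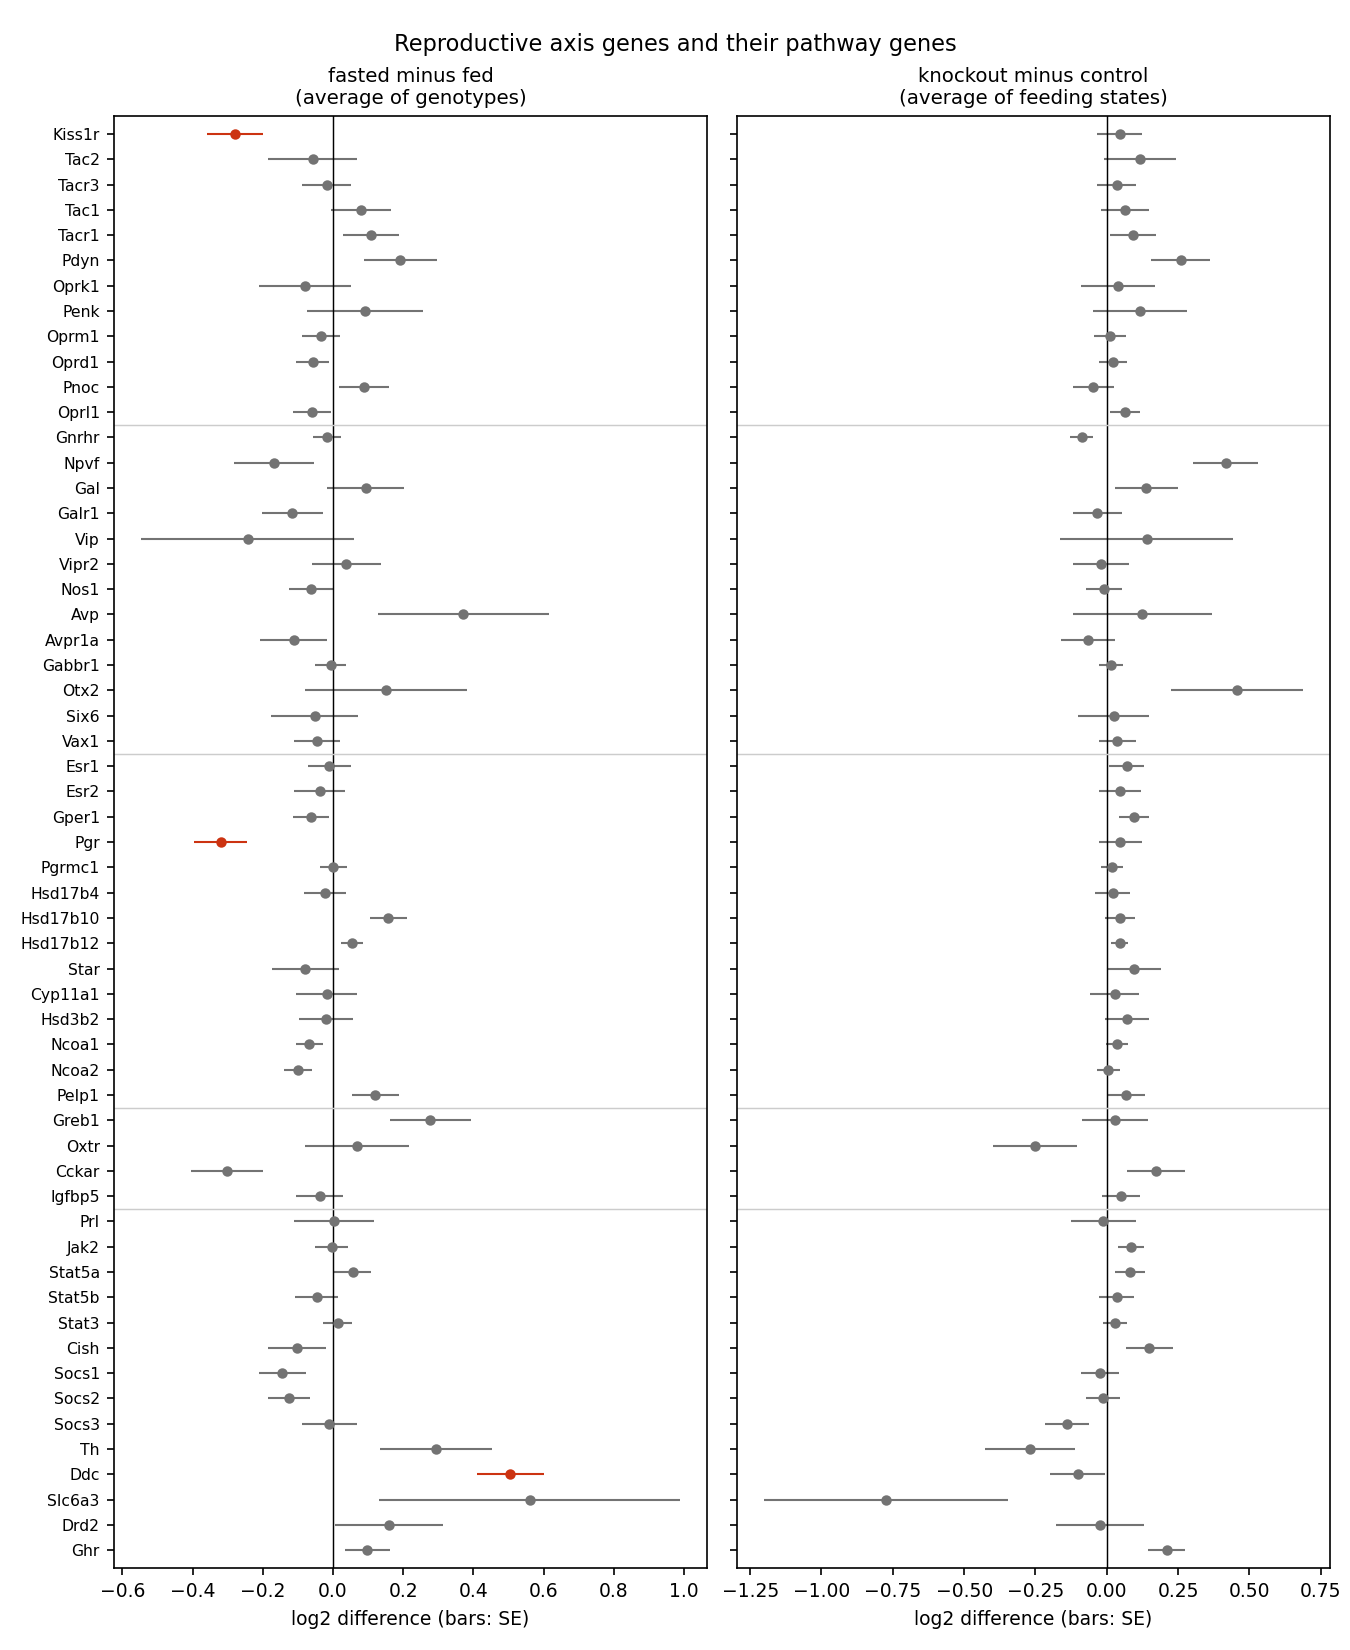
Averaged fasting difference (left, fasted minus fed) and averaged genotype difference (right, knockout minus control) in log2 units with SE for the measured members and the genes of the 5 lists, grouped by list, with each gene drawn once and on its first list. Red marks an adjusted p under 0.05: Kiss1r and Pgr lie to the left of zero and Ddc to the right in the fasting panel, and no gene is red in the genotype panel.

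Npy, the hunger peptide of the arcuate nucleus, was 0.78 ± 0.138 higher after the fast in the same samples (limma's adjusted p = 0.00432). Eif2s3y, a Y-linked gene of the sex-linked list, was also higher, by 0.19 ± 0.056 (limma's adjusted p = 0.0432). Its call held in 7 of 21 alternative settings. Among markers of neighbouring regions and cell types, Lef1 of the thalamic list fell by 0.55 ± 0.118 (limma's adjusted p = 0.0115). Prox1 of the cortical list fell by 0.31 ± 0.084 (limma's adjusted p = 0.0332). The call of Lef1 held in 20 of 21 alternative settings and that of Prox1 in 8. Lef1 did not stand for its list: of 10 measured thalamic and habenular markers 6 were higher and 4 lower after the fast in sign. Their median difference was 0.05, and their score ran from -0.31 to 0.2 on fed and from -0.14 to 0.09 on fasted arrays. Anterior pituitary markers, which a hypothalamic dissection could hold, had scores from -0.19 to 0.21 on fed and from -0.13 to 0.25 on fasted arrays. Of 8 measured pituitary markers 3 were higher and 5 lower after the fast in sign, with 0 past the threshold, and Fshb was at background. Cga, the subunit gene shared by the pituitary glycoprotein hormones, ran from 3.92 to 6.56 on fed and from 3.98 to 7.0 on fasted arrays, with an averaged fasting difference of 0.64 ± 0.548 (limma's adjusted p = 0.508). The hormone genes Gh and Prl ran from 3.94 to 5.52 and from 4.01 to 4.75. The part of these markers in the results was not tested.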

How the data were processed

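The authors deposited log2 expression values. The submitters' processing notes name RMA and affy for them without versions, and the genome build of the probe sets is not given in these sources. RMA subtracts background, brings all arrays to one distribution and summarises probes, which compresses differences of dim probe sets. Values were used as deposited, with no pseudocount or further normalisation. Of 45141 probe sets, 28898 named 1 gene, 551 several and 15692 none in the platform annotation. For each of 17097 genes the probe set naming only that gene with the highest mean was used. The largest share of identical values between arrays was 2.86%, so each array counted as 1 sample, and the number of arrays limits precision.

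The fit used limma 3.58.1 under R 4.3.3 (lmFit with 1 coefficient per group over all 14 arrays, contrasts, eBayes), with 10 residual and 3.27 prior degrees of freedom. Tests were two-sided and adjusted over all genes by Benjamini-Hochberg at 0.05, and the pipeline was tested on simulated data. Groups come from the sample titles, whose numbers pair no samples; replicate numbers are names in accession order. The 7 genes and the 15 gene lists were chosen with earlier results of these data known, so they are no independent evidence. A gene was at background when its mean was at or below the 95th percentile of the GC-matched control probe sets. Named genes were the members, list genes past the threshold, up to 3 genes with the smallest p of each of the 5 pathway lists, and the 3 genes most like each member; other genes were named after their values were seen. Receptors, hormones and regional markers used as checks, such as Tacr3, Oprk1, Pgrmc1, Prl, Gh, Cga and Fshb, belong to the latter. Correlations between members used 100000 permutations; the 21 pairs foreseen came down to 6 with 4 genes measured. Alternatives were averaged probe sets, a filter on the 40% lowest genes, a trended and robust prior, only the groups compared, arrays centred on their median, the number series, choroid plexus or striatal score as a covariate, and each of the 14 arrays left out; 3 more were added after seeing the data (both arrays with high cortical scores left out, the cortical score as a covariate, each probe set by itself). Python 3.11.15 and matplotlib 3.10.9 drew the plots.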

Additional observations from a re-analysis of the deposited data

Results flagged for a closer look

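In groups of 4 samples, 98 were examined for a sample far from the others and 9 were found, while chance gives about 1 in 20. Among the Pgr probe sets, knockout fed replicate 1 stood at 4.66 on 1421444_PM_at, where the other 3 samples lay between 4.40 and 4.42, and knockout fed replicate 4 stood at 6.93 on 1455772_PM_at, where the others lay between 6.66 and 6.70. On the brightest Pgr probe set no sample was set apart in this way. Without knockout fed replicate 1 or knockout fed replicate 4, that probe set's averaged fasting difference still passed.

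Among pathway genes, knockout fed replicate 1 had an Avp level of 11.27, while the other 3 of its group lay between 10.54 and 10.65. Galr1 was at 4.50 in control fed replicate 4 against 4.94 to 5.02, and Hsd17b10 was at 8.71 in the same sample against 8.82 to 8.84. Control fed replicate 1 had a choroid plexus score of 0.65 against -1.2 to -0.93 in the other control fed samples, a cortical and hippocampal score of 0.9 against -0.15 to -0.04, and an arcuate and ventromedial score of -0.54 against -0.02 to 0.06. Control fed replicate 2 had a score of sex-linked genes of -0.1 against -0.04 to -0.03. All 14 arrays had the pattern of male mice. The Y-linked genes Eif2s3y, Kdm5d and Uty ran from 8.5 to 8.97, from 7.37 to 7.78 and from 5.86 to 6.45. Xist, which female cells express, had a mean of 4.05 and was at background.

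For 2 genes every sample of one group lay above, and every sample of the other below, the mean of its own reference group, although the samples themselves overlapped. The share of all genes with such a pattern is not given here, so the count of 2 cannot be set against it. Every knockout fed sample had more Avp than the mean of fed controls, which includes the low value of 9.06 in control fed replicate 1, and every knockout fasted sample had less than the mean of fasted controls. For Jak2 every control fasted sample lay below the mean of fed controls and every knockout fasted sample above the mean of fed knockouts. The genotype difference of Avp was 0.47 in fed and -0.22 in fasted mice, which differ by -0.69, with limma's interaction at -0.69 ± 0.488 and an adjusted p of 1.0. The fasting difference of Jak2 was -0.05 in control and 0.05 in knockout mice, which differ by 0.1, with the interaction at 0.10 ± 0.091 (adjusted p = 1.0).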

How the results depend on the processing

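No paired analysis was possible because the numbers in the sample titles all differ and pair no samples. Of 1756 comparisons with an alternative, 1554 kept direction and side of the threshold. The cause of the changes below was not tested, except where fewer samples or genes were fitted. The number series as a covariate, which rests on 1 fed array, ended the averaged fasting call of Pgr (-0.437), leaving 0 of the members past the threshold. It turned the sign for Pdyn (-0.08 on average, -0.112 in control, -0.047 in knockout), Tac2 (0.158 on average, 0.092 in control), Esr1 (0.224 on average and in control), Avp (-0.232), Greb1 (-0.044), Npvf (0.183), Oprd1 (0.024) and Pelp1 (-0.037), and in the interaction for Pdyn (0.066), Pgr (0.007) and Esr1 (-0.001). Genes past the threshold then numbered 15 instead of 1715 for fasting on average, 2 instead of 472 in control and 0 instead of 119 in knockout mice, with 2 in fed, 3 in fasted and 6 on average between genotypes and 1 in the interaction.

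Given the choroid plexus score, 2 members passed after the fast, since Pdyn (0.226) joined Pgr. The sign turned for the genotype difference of Esr1 (-0.016 on average, -0.047 in fed mice) and Otx2 (-0.197) and for the interaction of Pdyn (0.001), with 2 genes past the threshold between genotypes in fasted mice and 4 on average. The striatal score turned the averaged fasting difference of Esr1 (0.011) and gave 55 genes in knockout mice and 0 between genotypes in fed mice. The cortical score turned Esr1 (0.038 on average, 0.013 in control), Tac2 in knockout (-0.007) and the interaction of Pdyn (0.028), with 0 genes between genotypes in fed mice. Leaving out both arrays with a high cortical score turned Esr1 (0.025), Tac2 in knockout (-0.053) and the interaction of Pdyn (0.127), also with 0 genes. Centring arrays on their median turned Esr1 (0.013) and the interaction of Pdyn (0.001), with 0 genes. The mean of probe sets turned Gnrhr between genotypes (0.056), Pelp1 (-0.008) and the interaction of Pgr (0.01), with 0 genes between genotypes in fed mice and on average. Genes past the threshold in knockout mice numbered 10 with only the groups compared, 231 with the filter and 341 with the trended prior, which gave 770 in control mice. Between genotypes these gave 0, 2 and 2 genes in fed mice, 4 in fasted mice with only the groups compared, and 4 on average with the trended prior.

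Correlations of members also changed sign. On values minus group means they were 0.16 (Pdyn and Pgr) and -0.017 (Tac2 and Esr1). In fed samples they were 0.376 (Pdyn and Pgr), -0.391 (Esr1 and Pgr), -0.204 (Tac2 and Esr1) and -0.088 (Tac2 and Pdyn), and in fasted samples 0.638 (Pdyn and Esr1) and 0.133 (Pdyn and Pgr). Without the 2 arrays farthest from the median they were 0.489 (Pdyn and Esr1) and -0.14 (Tac2 and Esr1).

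Leaving out 1 sample at a time, the averaged fasting difference of Pgr ran from -0.364 to -0.264, with 0 to 1 members past the threshold. Values near zero changed sign: for Esr1 fasting on average (-0.043 to 0.026), in knockout mice (-0.043 to 0.095), the interaction (-0.001 to 0.137) and the genotype in fed mice (-0.002 to 0.104); for Pgr the interaction (-0.138 to 0.082) and the genotype on average (-0.009 to 0.101) and in fasted mice (-0.078 to 0.142); for Tac2 fasting on average (-0.116 to 0.037), in control (-0.27 to 0.035) and knockout mice (-0.053 to 0.135) and the genotype in fed mice (-0.068 to 0.112); and for Pdyn the interaction (-0.101 to 0.133). Genes past the threshold ran from 998 to 2120 for fasting on average, 216 to 685 in control and 18 to 363 in knockout mice, 0 to 3 between genotypes in fed and in fasted mice, 1 to 6 on average and 0 to 1 in the interaction. Signal over background limited Esr1 and 1 Pgr probe set, and pathway genes near background such as Gnrhr, Oprd1, Tacr1, Gper1 and Socs3.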

Other observations

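Receptors and neuropeptide genes of the reproductive axis gave some further levels. The kisspeptin receptor gene Kiss1r, the neurokinin B receptor gene Tacr3 and the dynorphin receptor gene Oprk1 were measured above background on all 14 arrays, between 5.24 and 5.90, 7.35 and 7.79, and 5.48 and 6.27. The opioid and tachykinin precursor genes Penk and Tac1 ranged from 9.06 to 9.99 and from 9.58 to 10.32. Vip, of the suprachiasmatic neurons that reach GnRH neurons, ranged from 5.33 to 7.79, with the lowest value in control fasted replicate 1. Slc6a3, the dopamine transporter gene, ranged from 5.39 to 8.92 and was lowest in knockout fed replicate 1, and its averaged differences of 0.56 ± 0.428 after the fast and -0.77 ± 0.428 between the genotypes did not pass (limma's adjusted p = 0.449 and 0.999).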
